A study of Bombyx mori with 3 samples.

Results

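The set described here holds the genes whose RNA was at least 2 times more abundant in replicate 2 than in each of the other libraries of silkworm larval brain. It was chosen from these same counts: counts per gene were scaled to CPM (each count divided by its library's total, times 1000000), genes needed a mean count of at least 50 over the 3 libraries, and CPM in replicate 1 had to be at least 0.25 times that in replicate 3. Of 17072 genes in the table, 9327 reached the mean count of 50 and could be judged, and 95 of these, 1.02%, met the rule. The values that chose the genes are given below as a description, and no test was made on them. Sequences of the genes were not used here.

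The 3 libraries were made from brains of wild-type Bombyx mori of strain P50, reared on mulberry leaves and taken on day 3 of the 5th larval instar. They are replicates 1 to 3 of 1 group, with no treatment and no contrast in the labels, and nothing says whether they came from separate sets of animals. Library totals were 17935488 counts in replicate 2, 19843776 in replicate 1 and 23895452 in replicate 3. The neuron list (the neuronal markers Elav and Tau, nicotinic receptor subunits and other genes of neurons) summed to 1066 TPM in replicate 2, against 1084 and 1103 TPM in replicates 1 and 3, where TPM is the deposited value per gene length scaled to 1000000 per library. Of its 18 matched genes 15 had enough counts, and 0 were in the set, against 1.02% of all genes. At that share 15 genes would hold under 1 member, so the 0 says nothing about neuronal genes.

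Muscle and cuticle genes were examined as groups within the set. A muscle contracts through its sarcomeres, in which myosin thick filaments pull on actin thin filaments under the control of troponin and tropomyosin, and giant elastic proteins hold the filaments in register. Cuticle, the insect's outer skeleton, is laid down by epidermal cells as chitin bound to many cuticular proteins. Among them is the large CPR family, whose members carry a chitin-binding consensus. The cuticle list also took in genes with symbols that start with CPH, CPG, CPFL and others, by name only. In bulk RNA, more cells of a type and more RNA per cell cannot be told apart.

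Together the 95 genes held 2.14% of all counts in replicate 2, against 0.850% in replicate 1 and 0.806% in replicate 3. Their summed level was 25973 TPM in replicate 2, against 9140 and 10151 TPM in replicates 1 and 3. Among the members, 27 stood at 100 TPM or more in replicate 2, 54 at 10 to 100 TPM and 14 below 10 TPM. The median member was at 32.4 TPM in replicate 2, against 7.29 TPM in replicate 1 and 8.52 TPM in replicate 3. In 89 of the 95 genes no library was under 1 TPM, so most were also detected where they were lower.

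Most ratios lay close to the limit. The ratio of CPM in replicate 2 to the higher of replicates 1 and 3 had a median of 2.41, with the middle 50% of members between 2.23 and 2.78. It was under 3 for 77 members, between 3 and 7 for 9, and over 7 for the last 9. Over all 9327 genes the same ratio had a median of 0.929, and 90% of genes lay between 0.749 and 1.16. The 95% interval of the ratio from counting error alone was exact Clopper-Pearson on the counts of both libraries. It lay above 1 for all 95 members and above 2 for 63. The same counts chose the members at a ratio of at least 2, so these intervals are a description and no support for the set. They also leave out any variation between samples. Just inside the limit were LOC101740330 (ratio 2.0001), LOC101743804 (2.01) and LOC101745158 (2.02), and just outside were LOC733010 (1.96), Cb10 (1.95) and LOC101744520 (1.93). A further 82 genes had ratios between 1.5 and 2.

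**Figure D1:**
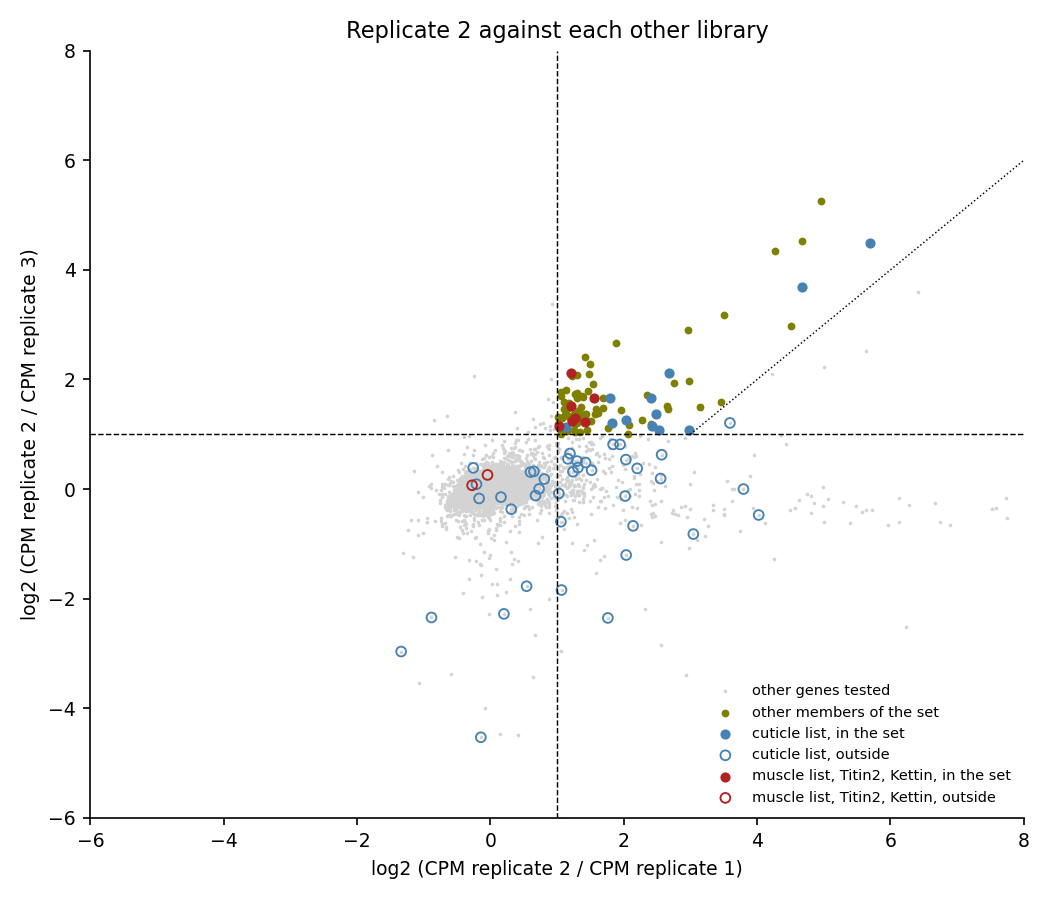
Each point is 1 gene with a mean count of at least 50; the horizontal axis is log2 of CPM in replicate 2 over replicate 1 and the vertical axis log2 of CPM in replicate 2 over replicate 3, with dashed lines at the 2-fold limits and a dotted line at the limit on replicate 1 over replicate 3. Filled red points (muscle list, Titin2 and Kettin) sit close together near the corner of the limits, and filled blue points (cuticle list) spread to the right. The rule itself keeps filled points beyond both limits. Open red points are the muscle genes AK and Tm, outside the set, and open blue points are cuticle genes outside the set. Not drawn are 6 genes with no count in a library, 1 of them a member, and 6 beyond the axes.

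The same 2-fold limits gave unequal numbers of genes for the 3 libraries. Replicate 2 was at least 2 times above each other library for 102 genes (1.09%) and at least 2 times below each for 4 (0.0429%). Replicate 1 stood 2 times above both others for 2 genes (0.0214%) and 2 times below both for 282 (3.02%). Replicate 3 stood above for 53 (0.568%) and below for 7 (0.0751%). The set depends on which library it is set against: with all 3 libraries in the mean count of 50, 121 genes (1.3%) were at least 2 times higher in replicate 2 than in replicate 3, and 429 genes (4.6%) were at least 2 times higher than in replicate 1. With replicate 1 left out altogether and the mean count taken over the remaining libraries, the first number was 132, and with replicate 3 left out in the same way the second was 397.

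Genes of the muscle list were among the most abundant members. The list has 8 matched genes, 7 with enough counts, and 5 of these 7 were in the set, against 1.02% of all genes, a share that rests on the values the rule used. They were A1, MLC-2, TpnI, Mf and Fln. Its summed level was 10727 TPM in replicate 2, against 5338 TPM in replicate 1 and 4990 TPM in replicate 3, and no gene of the list was at 0. Titin2 and Kettin, sarcomere genes that the list did not name and that were added after their values were seen, were also in the set.

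The actin gene A1 was the highest member of all, with 4636 TPM in replicate 2, against 1862 and 1907 TPM in replicates 1 and 3. MLC-2, a myosin light chain, measured 2126 TPM in replicate 2, against 889 and 753 TPM in replicates 1 and 3. TpnI, troponin I, which holds back contraction until calcium arrives, stood at 1818 TPM in replicate 2, against 754 and 781 TPM in the others. In these 3 thin and thick filament genes replicates 1 and 3 lay close together and replicate 2 stood apart, at 2.41, 2.32 and 2.34 times the higher of them.

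Thick filament and scaffold genes followed at lower levels. Myofilin (Mf), a thick filament protein of insect muscle, was at 392 TPM in replicate 2, against 185 and 179.5 TPM in replicates 1 and 3, and its ratio of 2.05 is the lowest of the group. Flightin (Fln), which binds myosin in the flight muscle of Drosophila, was at 199 TPM in replicate 2, against 83.4 TPM in replicate 1 and 46.4 TPM in replicate 3. Titin2 stood at 67.4 TPM in replicate 2, against 24.4 and 29.1 TPM in replicates 1 and 3, and Kettin at 66.4 TPM, against 21.9 and 21.1 TPM. Both encode giant proteins that tie actin to the sarcomere's Z-disc, and their counted lengths of 10041 and 14433 bases are among the longest of the set.

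Across these 7 sarcomere genes the ratio to the higher of replicates 1 and 3 ran from 2.05 to 2.94, under 3 in each, over levels from 66.4 to 4636 TPM in replicate 2. The ratio of replicate 1 to replicate 3 was between 0.877 and 1.23 for 6 of them and 1.88 for Fln. Not every gene of the list took part. Arginine kinase (AK), which buffers ATP in muscle and in other excitable cells, measured 1496 TPM in replicate 2, against 1493 and 1265 TPM in replicates 1 and 3. Tropomyosin (Tm) was at 55.5 TPM in replicate 2, against 65.1 and 53.5 TPM in the others. The actin gene A2, with too few counts to be judged, was at 3.98 TPM in replicate 2, against 5.31 and 4.21 TPM.

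**Figure D2:**
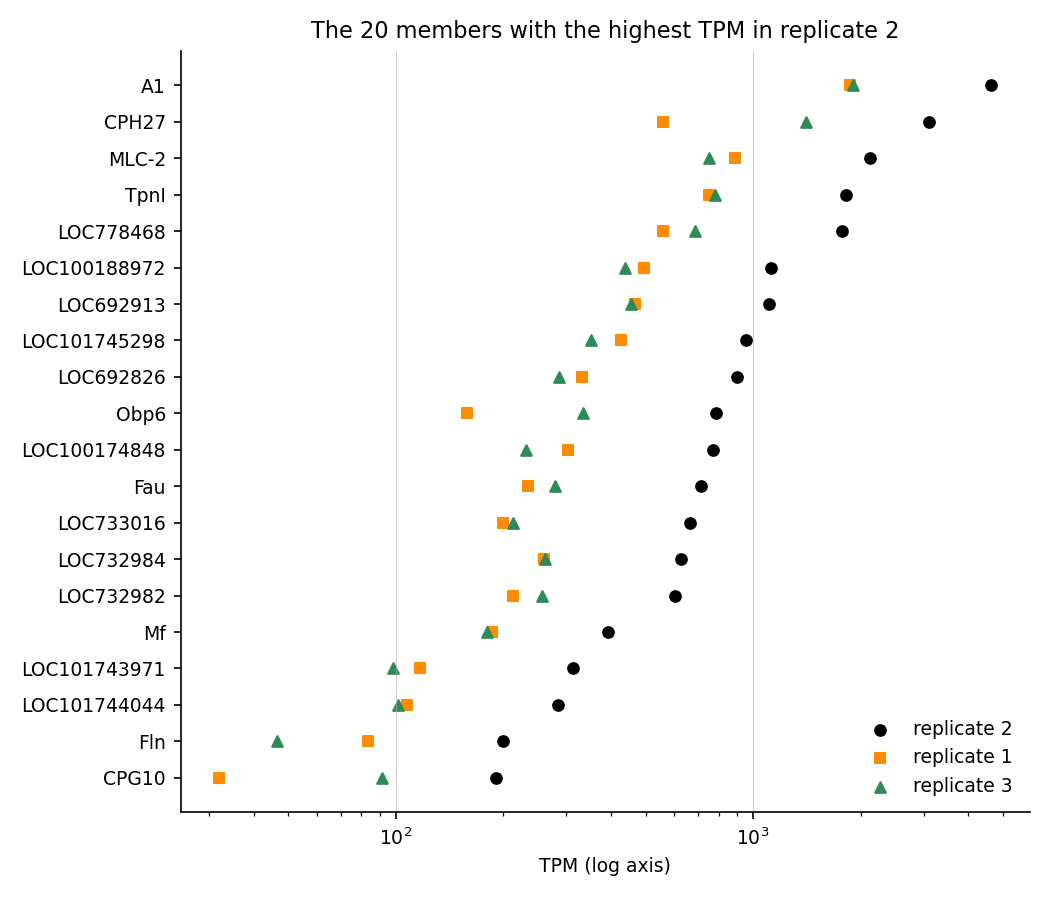
TPM on a log axis in replicate 2 (circles), replicate 1 (squares) and replicate 3 (triangles) for the 20 members with the highest level in replicate 2, from A1 at the top to CPG10 at the bottom. In most rows the squares and triangles lie close together to the left of the circle, while for CPH27, Obp6 and CPG10 replicate 1 lies well below replicate 3 and for Fln it lies above.

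Cuticular protein genes formed the larger named group but a smaller part of the RNA. The cuticle list has 209 matched genes, of which 49 had no count in any library and 52 had enough counts. Of those 52, 12 were in the set, against 1.02% of all genes, a share that again rests on the values the rule used. Summed over the whole list, the level was 9246 TPM in replicate 2, against 2405 TPM in replicate 1 and 7182 TPM in replicate 3, so replicate 3 lay nearer to replicate 2 here than it did for muscle genes. CPH27, the highest of them, had 3105 TPM in replicate 2, against 559 and 1410 TPM in replicates 1 and 3.

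The remaining cuticle members were far lower than CPH27. CPG10 was at 191 TPM in replicate 2, against 32.0 and 91.7 TPM in replicates 1 and 3. Both CPH5 and CPR15 were scarce in the other libraries: CPH5 had 81.3 TPM in replicate 2, against 3.08 and 6.42 TPM, and CPR15 had 78.8 TPM, against 1.47 and 3.54 TPM. CPFL1 measured 71.9 TPM in replicate 2, against 31.9 and 33.3 TPM in replicates 1 and 3, the cuticle member whose ratio of replicate 1 to replicate 3 was nearest to 1. Next came CPR3 (30.5 TPM in replicate 2), CPR19 (22.2 TPM) and CPR55 (19.7 TPM), and the other 4 lay between 10.2 and 17.1 TPM in replicate 2.

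All 12 cuticle members were lower in replicate 1 than in replicate 3, with a median ratio of replicate 1 to replicate 3 of 0.545 and a range from 0.268 to 0.9995. Among the 7 sarcomere genes the same ratio had a median of 1.08, and 6 of 7 were higher in replicate 1. The ratio of replicate 2 to the higher of the others also ran wider, from 2.10 to 22.5 in the cuticle members. The rule itself allowed the ratio of replicate 1 to replicate 3 to be as low as 0.25. It also required replicate 2 to be at least 2 times each of the others. Both sets of values therefore describe the members and are no test of a difference between the groups.

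Most cuticle genes with enough counts did not meet the rule. Of the 40 outside the set, 25 were at least 2 times higher in replicate 2 than in replicate 1, and 2 were at least 2 times higher than in replicate 3. The rule had already taken out the cuticle members, all at least 2 times higher than in both other libraries, so it partly sets these counts. Over all 52, 37 were at least 2 times higher in replicate 2 than in replicate 1, against 4.6% of all genes, and 14 were at least 2 times higher than in replicate 3, against 1.3% of all genes. Replicate 1 was the lowest library for 46 of the 52 (35.1% of all genes), replicate 2 the highest for 32 (23.6% of all genes) and replicate 3 the highest for 18 (27.6% of all genes). Of the 8 cuticle genes with the highest mean level, only CPH27 was in the set. CPR148 was 3.85 times higher in replicate 2 than in replicate 1 and 1.76 times higher than in replicate 3, and CPR23 showed ratios of 3.58 and 1.76. For CPR46 the ratios were 2.86 and 1.27, for CPR42 2.69 and 1.40, and for LOC101745980 5.87 and 1.14. CPH14 and CPH4 were highest in replicate 3, where replicate 2 had 0.434 and 0.279 times their CPM.

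The members' RNA in replicate 2 was only partly in these named groups. The 7 sarcomere genes supplied 24.9% of the members' summed CPM in replicate 2, and 24.8% of the excess over the higher of replicates 1 and 3. The 12 cuticle genes supplied 3.45% of the CPM and 3.54% of the excess. A further 9 genes with names supplied 3.69% of the CPM, and 67 genes that carry only a locus number or had no match in the reference table supplied 67.9% of the CPM and 67.7% of the excess. On the TPM scale, which divides by length, the shares were 35.8% for the sarcomere genes, 14.1% for the cuticle genes and 43.5% for the unnamed ones. Leaving out the sarcomere genes left 88 members with 1.61% of the counts of replicate 2, and leaving out the cuticle genes as well left 76 with 1.54%. The lists were matched by symbol or synonym, so genes without a matching name could not be counted in them, and these shares cover matched genes only. The part of muscle or epidermal RNA in the unnamed members was not tested.

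**Figure D3:**
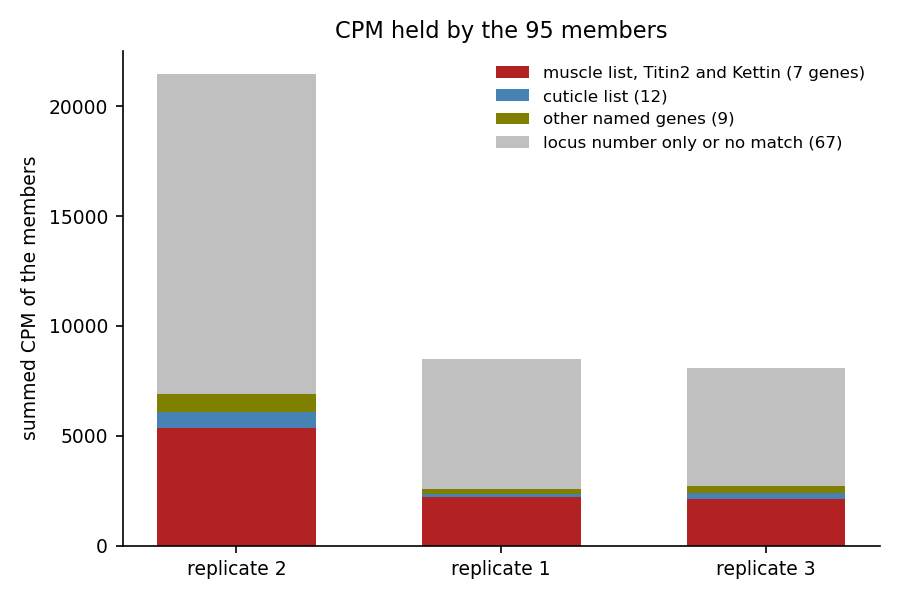
Stacked bars show the summed CPM of the 95 members in replicate 2, replicate 1 and replicate 3, split into the sarcomere genes (red), the cuticle list (blue), other named genes (olive) and genes with a locus number only or no match (grey). The grey segment is the tallest in every library, the red one is next, and the blue one is small in all 3.

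The unnamed members included abundant genes. Of the 20 members highest in replicate 2, 11 have a locus number only, and these 11 held 47.8% of the members' CPM in replicate 2. LOC778468 measured 1773 TPM in replicate 2, against 559 and 687 TPM in replicates 1 and 3. LOC100188972, with a counted length of 7291 bases, was at 1125 TPM in replicate 2, against 495 and 438 TPM. It had the most counts of all members, 69271 in replicate 2, against 34855 and 35531. These are levels of genes for which the reference table gives no name, so nothing is said of what they encode.

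LOC692913 stood at 1107 TPM in replicate 2, against 468 and 455 TPM in replicates 1 and 3, and LOC692826 at 902 TPM, against 332 and 286 TPM. LOC733016 had the largest ratio of the 20, at 3.15, with 664 TPM in replicate 2, against 199.7 and 213 TPM. In the 11 genes the ratio to the higher of the other libraries ran from 2.16 to 3.15 and the ratio of replicate 1 to replicate 3 from 0.849 to 1.37.

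A small group stood much further apart. In 9 members replicate 2 was over 7 times above both other libraries. None of the 9 belongs to the muscle list, 2 belong to the cuticle list (CPR15 and CPH5), 2 are other named genes (Cop and Aqp) and 5 have locus numbers. They were modest in level, from 5.02 to 84.6 TPM in replicate 2, and held 1.25% of the members' CPM there.

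Cop encodes ceropsin, an opsin known from the silkworm brain. It had 84.6 TPM in replicate 2, against 2.64 and 2.24 TPM in replicates 1 and 3, from 1149 counts against 41 and 40. The ratio to the higher library was 31.0, with a counting interval of 22.7 to 43.4. Cop was thus detected in every library but stood far above the others in 1 of them.

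The aquaporin gene Aqp, which encodes a water channel, had 13.3 TPM in replicate 2, against 0.564 and 1.71 TPM in replicates 1 and 3. LOC101742049 measured 37.3 TPM in replicate 2, against 1.41 and 1.63 TPM, and LOC101739637 39.7 TPM, against 1.996 and 1.963 TPM. LOC101735306 was at 11.0 TPM in replicate 2, against 0.941 and 1.22 TPM, and LOC692414 at 28.2 TPM, against 3.52 and 3.83 TPM. The largest ratio belonged to LOC101738139, with 155 counts in replicate 2, against 2 counts in replicate 1 and 0 in replicate 3; its ratio to replicate 1 was 85.7, with a counting interval of 23.3 to 714. A count of 0 in replicate 3 allows up to 0.126 CPM, from 3 counts of that library. The minimum mean count was taken over all libraries, so LOC101738139 reached it only through its counts in replicate 2. The cuticle gene CPG12, with 129 counts in replicate 2, against 2 and 7 in replicates 1 and 3, missed that minimum. It was not judged, although its CPM in replicate 2 was 24.6 times that in replicate 3. The largest ratio is therefore the largest among genes that reached the minimum.

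**Figure D4:**
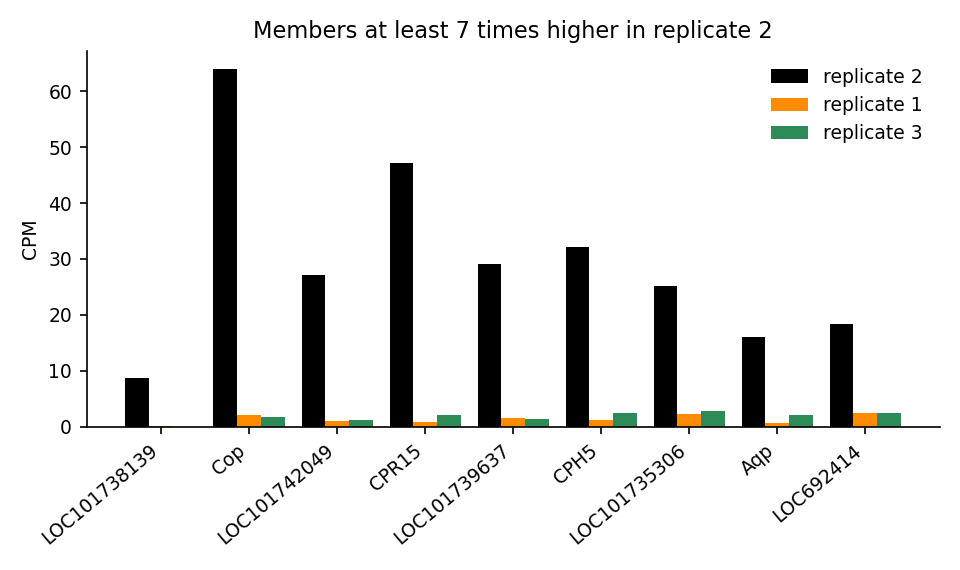
CPM in replicate 2 (black), replicate 1 (orange) and replicate 3 (green) for the 9 members with replicate 2 over 7 times above both others, ordered by ratio from left to right. Cop is the tallest bar, LOC101738139 has the largest ratio but the lowest level in replicate 2, and the bars of replicates 1 and 3 stay near 0 for all 9.

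The other named members came from several processes. Obp6, an odorant-binding protein gene, measured 789 TPM in replicate 2, against 158 and 334 TPM in replicates 1 and 3. It was the only member of the chemosensory list, of which 10 genes had enough counts, against 1.02% of all genes. That list summed to 10456 TPM in replicate 2, against 1368 and 9768 TPM in replicates 1 and 3. Replicate 1 was the lowest library for 9 of the 10 genes, against 35.1% of all genes. Fau was at 716 TPM in replicate 2, against 234 and 279 TPM. Cyp307a1, the spook gene of ecdysteroid synthesis, was low everywhere, with 5.02 TPM in replicate 2, against 0.957 and 1.54 TPM. It was the only member from the lists of endocrine glands (7 genes with enough counts) and of cytochromes P450 (19 genes), against 1.02% of all genes. The P450 list summed to 21405 TPM in replicate 2, against 4770 and 26274 TPM in replicates 1 and 3. Replicate 1 was the lowest library for 7 of its 19 genes, close to the 35.1% of all genes. Both this sum and that of the chemosensory list can rest on few genes. The epidermal enzyme list, given below, also names P450 genes, so its sum and that of the P450 list may share genes. A further 3 members with a symbol were named after their values were seen. ST5 stood at 44.3 TPM in replicate 2, against 20.3 and 18.2 TPM. The gene irp2 was at 17.0 TPM in replicate 2, against 5.12 and 6.18 TPM, and the UDP-glycosyltransferase gene Ugt3 at 14.6 TPM, against 6.78 and 4.34 TPM.

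The remaining lists gave no member, and at the overall share of 1.02% each of them would hold under 1 gene. None came from the 6 tested genes of epidermis and cuticle enzymes, the 1 of silk gland, the 2 of fat body and hemolymph, the 4 of hemocytes, the 4 of glia, the 3 of trachea and extracellular matrix, the 11 heat shock genes or the 12 antimicrobial and immune genes. The 29 genes of the neuropeptide list and the 81 of the ribosomal protein list also gave 0. The ribosomal list took only symbols that start with RpL, RpS or RpP. Genes under other symbols, such as the member Fau, were not counted in it. No midgut gene had enough counts. The epidermal enzyme list summed to 17336 TPM in replicate 2, against 318 TPM in replicate 1 and 22056 TPM in replicate 3. Its sum was thus high in replicates 2 and 3 alike, but a sum can rest on few genes, and values of its single genes are not given here. Replicate 1 was the lowest library for 5 of its 6 tested genes, against 35.1% of all genes. The hemocyte list summed to 191 TPM in replicate 2, against 166 and 305 TPM, and the glia list to 249 TPM, against 253 and 258 TPM. Their part in the set was not tested.

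Length and gene class, which the rule did not use, had values close to those of all genes tested. Of the 95 members, 89 were protein-coding (93.7%, against 94.0% of the genes tested), 2 were long noncoding RNAs (2.11%, against 1.83%) and 4 had no match in the reference table (4.21%, against 3.75%). The noncoding genes were LOC105842266 and LOC119630588, named after their values were seen, and 28 members carried a symbol other than a locus number. The counted length, taken from the ratio of counts to TPM, had a median of 2572 bases in the members, against 2567 bases in the 9327 genes tested, and 17.9% of members were longer than 5000 bases, against 17.6% of the tested genes. Members sat next to each other among protein-coding genes in 4 pairs. These were LOC101740441 with LOC101735306, LOC101744063 with LOC101742480, LOC101740428 with CPG10, and LOC101737167 with LOC101745258, and the genes of no pair overlapped. The first pair showed ratios of 3.85 and 9.08, the second 2.73 and 2.78, the third 3.01 and 2.11 and the fourth 2.38 and 2.91. Pairs were not counted for other sets of genes, so 4 pairs cannot be called many or few.

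Apart from Titin2 and Kettin, the 55 members not in the top 20, the 10 largest ratios or the lists ranged from 2.58 to 176 TPM in replicate 2, with ratios from 2.0001 to 3.92. Of these, 27 were higher in replicate 1 than in replicate 3 and 28 lower. Over all members the split was 44 higher and 51 lower, and 62 had replicates 1 and 3 within 1.5-fold of each other. Outside the set, the 5 genes whose pattern over the 3 libraries was closest to the members' median pattern were LOC101746405, LOC101744520, LOC101740405, LOC101735439 and LOC101747070, by the summed absolute difference of log2 CPM from each gene's own mean (0.527 to 0.610). All 5 missed the limit against 1 library only, with ratios to that library between 1.86 and 1.93, and none belongs to a list.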

How the data were processed

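Total RNA of larval brain was sequenced in 3 libraries. Raw counts per gene were deposited by the authors as whole numbers, and the deposited TPM were made by the authors to sum to 1000000 per library. Trim Galore, HISAT2 and featureCounts were used per the submitters' processing notes; genome build, annotation and strandedness, not given in the sources used here, are unknown, so related copies and overlapping genes may share reads. CPM is each count over its column sum. Gene names came from a RefSeq table of assembly ASM3026992v2, which matched 14944 of 17072 identifiers; none of its coordinates is given. Counted lengths were derived from counts over TPM, scaled to whole bases. Members and gene lists were chosen with earlier results of these data known. The lists were matched by symbol or synonym; 7 false matches were removed after seeing the matches.

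Named genes are the 20 members highest in replicate 2, the 10 with the largest ratios, up to 8 members per list, those nearest the limit, the 8 highest genes of the muscle and cuticle lists, and the 5 most alike; others were named after their values were seen. Planned comparisons of protein sequences were not made here. Alternative scalings used edgeR 4.0.16 (TMM) and DESeq2 1.42.0 (size factors) in R 4.3.3; the rest used Python 3.11.15, NumPy 2.4.6, pandas 2.3.3 and SciPy 1.17.1. The rule was run on simulated data with changes planted in replicate 2. That run checks the code only and does not show how the rule behaves in these libraries. With 1 group no test over samples was possible. Depth was 17935488 to 23895452 counts per library, and intervals cover counting error only. The values of 1 named member are not reported here.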

Additional observations from a re-analysis of the deposited data

How the results depend on the processing

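The set was the same 95 genes with TMM scaling and with DESeq2 size factors, and 93 of them remained with the deposited TPM in place of CPM. With these 3 scalings the median ratio was 2.48, 2.47 and 2.45, against 2.41. A limit of 1.5-fold gave 177 genes with 2.97% of the counts of replicate 2 and a median ratio of 2.06. A limit of 3-fold gave 18 genes with 0.0763% of the counts and a median ratio of 5.91, with 0 from the muscle list and 5 from the cuticle list; fewer genes follow from the stricter limit itself. Where replicates 1 and 3 had to lie within 1.5-fold of each other, 62 genes remained, with a median ratio of 2.39 and 3 from the cuticle list. With no minimum count and a pseudocount of 1 CPM there were 113 genes, 85 of them among the 95, with 15 from the cuticle list and a median ratio of 2.38. A mean count of at least 100 left 79 of the 95, with 9 from the cuticle list and a median ratio of 2.39, and no limit on replicate 1 over replicate 3 gave 102 genes and a median ratio of 2.43. Leaving out replicate 1 or replicate 3, with the mean count taken over the remaining libraries, so that other genes were judged, gave 132 to 397 genes, 2.44% to 5.60% of the counts of replicate 2, a median ratio of 2.74 to 2.91 and 15 to 35 genes of the cuticle list, the higher of each without replicate 3, whose genes need only exceed replicate 1; the muscle list gave 5 in both. Chosen after seeing the data, leaving out the muscle list, Titin2 and Kettin gave a median ratio of 2.46, and leaving out the cuticle list as well gave 2.46. No paired analysis was possible because the 3 libraries form 1 group.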

Other observations

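The limit on replicate 1 over replicate 3 left out 7 genes that were at least 2 times higher in replicate 2 than in each other library. CPR65, a cuticular protein gene, had 331 TPM in replicate 2, against 5.64 TPM in replicate 3 and 0 in replicate 1, from 1248 counts against 28 and 0. CPR2, of the same family, had 74.8 TPM in replicate 2, against 6.004 TPM in replicate 1 and 32.8 TPM in replicate 3. LOC101738654 was at 237 TPM in replicate 2, against 2.68 and 19.8 TPM in replicates 1 and 3, and LOC101744936 at 93.7 TPM, against 1.83 and 16.5 TPM. LOC101740462, LOC101747144 and LOC101740752 were the others, at 84.8, 16.8 and 12.2 TPM in replicate 2. The limit itself makes replicate 1 the lowest library for all 7, and these genes were named after their values were seen.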
